A study of Mus musculus with 18 samples.

Results

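The genes described here are those of T cells, natural killer (NK) cells and immune checkpoints in mouse lung and lung tumors. The list holds 36 genes, chosen by name, and 34 of them were measured; Lck and Tcf7 were not analysed here. Each gene was read by the probe set that names it alone and has the highest mean, out of 18193 genes read in the same way. The study used B6C3F1/N mice, a cross of C57BL/6N and C3H/HeN, and 18 Affymetrix 3′ expression arrays. The groups were 6 lungs of vehicle control mice, 6 spontaneous lung tumors and 6 lung tumors that arose under antimony trioxide inhalation, called treated tumors below. Mice were 5 to 6 weeks old at the start. Over as many as 105 weeks they breathed the aerosol on 5 days of each week, daily for 6 hours plus 12 minutes. The concentrations in the study, in mg/m3, were 0 in controls and 3, 10 and 30. The series title names the tumors as alveolar bronchiolar carcinomas. Tumors were cut out of the surrounding lung, so a tumor sample is compared with lung tissue and not with a purified cell type. The labels used here give no sex, exposure level, age at sampling or animal for a single array. Nothing states that arrays of a group came from separate animals, so the p-values cover only the variation among these samples, which may be technical.

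The T cell receptor signals through the CD3 chains and the CD247 zeta chain, to which the kinase ZAP70 binds once they are phosphorylated; the adaptor LAT then assembles the downstream signalling complex. CD4 and CD8 are coreceptors that bind MHC molecules, CD28 and ICOS add a costimulatory signal, and CTLA4, PD-1 (Pdcd1) and LAG3 restrain the response. Cytotoxic T cells and NK cells kill with perforin and granzymes, and PD-L1 (Cd274) and PD-L2 (Pdcd1lg2) are the ligands of PD-1. In lung these genes are read mostly from lymphocytes that circulate through or reside in the tissue, although Cd274, Pdcd1lg2, Gata3 and Il7r are also expressed by other cells.

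In 3 arrays, control 5 and spontaneous tumors 5 and 6, the values correlated with the other arrays at a median r of only 0.301 to 0.476 across probe sets, against 0.920 to 0.973 in the other 15. Their log2 values had an SD of 1.27 to 1.48, against 2.35 to 2.45. The results therefore rest on 15 arrays, namely 5 control (1, 2, 3, 4 and 6), 4 spontaneous (1 to 4) and 6 treated. For the whole list, the counts of calls are given over all 18 as well. In the 15 arrays, the 3′ minus 5′ log2 difference of the actin control probes was -0.236 to -0.174 in control, -0.377 to -0.233 in spontaneous and -0.330 to -0.167 in treated arrays. The treated arrays spanned the control range of that measure, and the spontaneous arrays lay mostly below it. The same difference for the GAPDH control probes moved more with group, at 1.84 to 2.21 in control, 1.11 to 1.40 in spontaneous and 1.09 to 1.97 in treated arrays, where only treated 1 was within the control range. The bioB spike averaged 10.65 to 11.24 on the log2 scale in control, 10.19 to 10.49 in spontaneous and 10.25 to 10.62 in treated arrays, with no overlap between control and tumors.

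Every value below is a log2 signal, and every difference is a log2 difference ± its standard error, tumor minus control unless stated. A gene was called changed at a Benjamini-Hochberg adjusted p under 0.05 over all 18193 genes, in limma's fit of the 3 groups. Against control, 17 of the 34 genes were lower and 1 was higher in treated tumors. In spontaneous tumors, 11 were lower and 1 was higher. The median difference of the 34 genes was -0.82 in treated and -0.54 in spontaneous tumors, against 0.09 and 0.12 over all genes. Among all genes, 15% were called lower and 23.8% higher in treated tumors; in spontaneous tumors these shares were 12.9% and 20.1%. In either direction 38.8% and 33% of all genes were called. The share called lower was thus 50.0% of these genes against 15% of all in treated tumors, and 32.4% against 12.9% in spontaneous tumors. The treated and spontaneous comparisons use the same control arrays, so they are not independent of each other. In tissue RNA, fewer cells of a type and less RNA per cell cannot be told apart.

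Over all 18 arrays, 12 genes were lower in treated tumors and none was higher, while 4.44% of all genes were lower and 2.98% higher. In spontaneous tumors only Il7r was still called over 18 arrays, and it was lower, with 4.16% of all genes called and 3.19% lower. With the actin 3′ minus 5′ difference as a covariate, 8 genes were called in spontaneous tumors, of which 3 were lower, and 16 in treated tumors, while 25.8% and 39.1% of all genes were called. That covariate ended the spontaneous calls of Cd2, Cd3e, Cd8a, Gzma, Il7r, Klrd1, Lat and Zap70 and added calls of Foxp3, Pdcd1, Pdcd1lg2 and Prf1, all higher. With the GAPDH difference as a covariate, chosen after seeing the data, no gene was called in spontaneous tumors and only Gata3, lower, in treated tumors, while 5.85% and 8.88% of all genes were called. All 17 genes called lower in treated tumors kept a negative difference in that fit, at -2.15 ± 0.80 for Cd3e and -2.63 ± 1.06 for Gzma, and the difference of Cd28 turned to -0.18 ± 0.58. The GAPDH measure and tumor against control can be told apart only in part, since 1 treated array alone lay in the control range.

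Low signals limit some of these values. The 95th percentile of 39 olfactory receptor genes, assumed here to be little expressed in lung, was 5.23 and is taken as a floor. Their means ran from 1.97 to 5.95, so this floor is only a description. Among the genes called lower in treated tumors, Cd8b1, Gzma, Klrd1, Klrk1, Tbx21 and Ncr1 had a treated mean under it, and so had Gzma in spontaneous tumors. Their fitted differences are therefore not exact sizes. With tumor values raised to the floor and control values kept as read, the control signal was 3.18-fold higher than treated tumors for Gzma. It was 2.95-fold higher for Klrd1 and 1.31-fold for Klrk1, and each of these genes was under the floor in all 6 treated arrays. It was 2.44-fold higher for Tbx21 and 1.92-fold for Cd8b1, under the floor in 5 and 4 of the 6. Control values of Gzma (lowest 4.62) and Klrk1 (median 5.19) were partly under the floor as well, so their folds are not lower bounds. For Ncr1 the control mean was under the floor too, and no fold is given. Of the genes not called, Cd5, Gzmb, Gzmk, Eomes and Ifng also had a treated mean under the floor, so a fall in them could be missed.

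**Figure D1:**
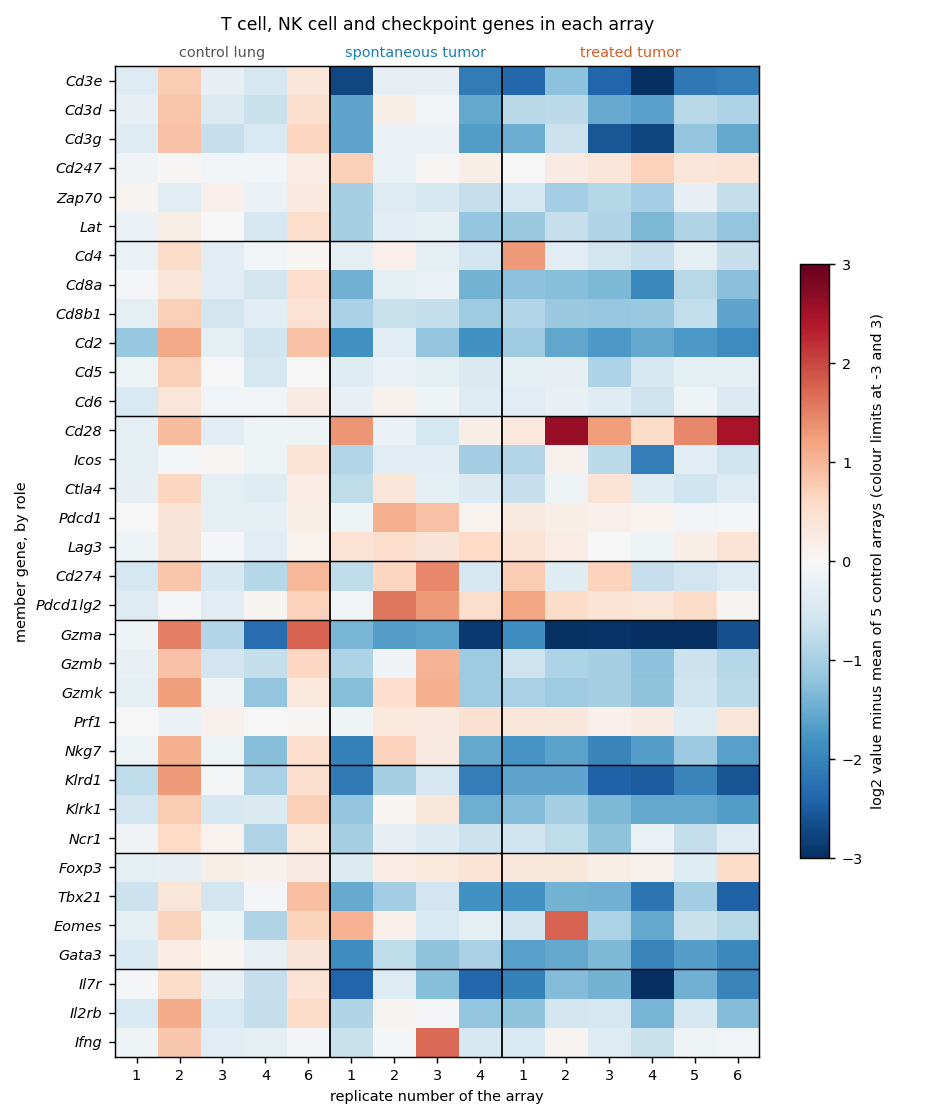
Heat map of the 34 genes (rows, by role) over the 15 arrays (columns, by group); colour is each array's log2 value minus the control mean of that gene. Most genes of the T cell receptor, CD8, granule and NK groups are below the control mean in all 6 treated arrays, while spontaneous arrays 2 and 3 lie nearer to control than 1 and 4.

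The T cell receptor genes were lower in treated tumors for 5 of 6 measured, and in spontaneous tumors for 3 of 6. Over 18 arrays, 2 of the 6 (Cd3e and Lat) were lower in treated tumors and none in spontaneous tumors. The 3 CD3 genes lie next to each other on chromosome 9 with no other protein-coding gene between them. Because they were called lower together in treated tumors, the 250 bases before their starts are shown, with those of the granzyme A gene Gzma, which was lower in both kinds of tumor. They are from RefSeq's annotation of GRCm38.p6, 5′ to 3′ on the gene's strand: Cd3g at chr9:44980432-44980681 (minus), Cd3d at chr9:44981536-44981785 (plus), Cd3e at chr9:45009612-45009861 (minus) and Gzma at chr13:113100982-113101231 (minus). Capitals mark matches, on either strand, to letters that lymphocyte factor families are known to bind: RUNX (TGTGGT), ETS (AGGAAG), T-box (GTGTGA) and E-box (CAGNTG). These matches may overlap each other.
Cd3g: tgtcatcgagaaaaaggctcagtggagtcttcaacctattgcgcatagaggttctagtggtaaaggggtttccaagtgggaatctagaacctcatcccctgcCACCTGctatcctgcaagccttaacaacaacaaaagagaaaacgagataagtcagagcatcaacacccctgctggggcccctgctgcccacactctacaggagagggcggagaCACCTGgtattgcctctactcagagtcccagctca
Cd3d: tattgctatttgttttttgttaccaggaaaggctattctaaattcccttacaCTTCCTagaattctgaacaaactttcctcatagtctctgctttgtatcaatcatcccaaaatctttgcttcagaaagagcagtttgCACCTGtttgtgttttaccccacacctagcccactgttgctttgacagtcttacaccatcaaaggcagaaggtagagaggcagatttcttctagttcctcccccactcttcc
Cd3e: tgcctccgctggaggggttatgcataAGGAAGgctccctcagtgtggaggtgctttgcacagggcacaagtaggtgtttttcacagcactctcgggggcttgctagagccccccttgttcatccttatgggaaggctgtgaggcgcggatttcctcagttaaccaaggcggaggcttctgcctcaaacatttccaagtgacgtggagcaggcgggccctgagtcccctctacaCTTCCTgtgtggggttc
Gzma: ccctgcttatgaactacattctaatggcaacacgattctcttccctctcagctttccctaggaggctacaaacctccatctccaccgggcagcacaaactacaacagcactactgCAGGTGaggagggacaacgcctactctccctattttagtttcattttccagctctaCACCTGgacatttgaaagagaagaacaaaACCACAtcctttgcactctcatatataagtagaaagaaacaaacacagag

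The Cd3g window held 2 E-box matches and no ETS match, the Cd3d window 1 of each, and the Cd3e window 2 ETS matches and no E-box. The Gzma window held 1 RUNX and 2 E-box matches. The RefSeq table held 29 starts of 25 of the 34 genes. Ncr1, Foxp3 and Zap70 had several starts each, and the Ncr1 windows overlap, so the windows are not independent. An E-box match lay in 79.3% of those 29 windows, against 44.8% of all 32851 windows of the same length. ETS letters lay in 48.3% against 29.5%, RUNX letters in 27.6% against 14.05%, and T-box letters in 20.7% against 12.3%. GATA letters (AGATAA) lay in 13.8% against 9.99%. TATA letters (TATAAA) went the other way, in 6.90% against 12.4%. These are counts of letters and not of binding.

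Cd3e, the epsilon chain, read 8.11, 9.26, 8.24, 7.98 and 8.84 in control arrays 1, 2, 3, 4 and 6. It read 5.74, 8.23, 8.25 and 6.38 in spontaneous tumors 1 to 4, and from 5.43 to 7.26 with a median of 6.22 in the 6 treated tumors. All treated arrays were below all control arrays, whereas spontaneous arrays 2 and 3 read within the control range. Cd3e fell by 2.21 ± 0.44 in treated tumors, a 4.63-fold lower signal (adjusted p = 0.00108, exact permutation p = 0.00433). Its difference in spontaneous tumors was -1.34 ± 0.49 (adjusted p = 0.0485, exact p = 0.143). The spontaneous call lies at the threshold and held in 4 of 15 fits that each left out 1 array.

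Cd3d and Cd3g, the delta and gamma chains, differed by -1.08 ± 0.35 and -1.69 ± 0.43 in treated tumors (adjusted p = 0.0242 and 0.00576). Both calls were lost over 18 arrays (adjusted p = 0.10 and 0.099), and that of Cd3d also without control 2, control 6 or treated 4. In spontaneous tumors their differences were -0.76 ± 0.39 and -0.90 ± 0.48, neither of which passed (adjusted p = 0.155 and 0.164). Cd3d read 6.13, 7.89, 7.64 and 6.17 in spontaneous tumors 1 to 4, and Cd3g 6.39, 7.79, 7.80 and 6.28. As with Cd3e, arrays 1 and 4 were low and arrays 2 and 3 were inside the control range.

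Lat, the adaptor, read 7.17, 7.54, 7.33, 6.84 and 7.88 in control, 6.37, 7.01, 7.05 and 6.19 in spontaneous tumors, and 6.02 to 6.67 (median 6.35) in treated tumors. No treated array reached a control array. Lat differed by -1.02 ± 0.20 in treated tumors (adjusted p = 0.000919) and -0.70 ± 0.22 in spontaneous tumors (adjusted p = 0.0244, exact p = 0.0635). Zap70, the kinase, read 7.92, 7.50, 8.01, 7.67 and 8.13 in control and 6.85, 7.47, 7.37 and 7.17 in spontaneous tumors, where no array overlapped control. Treated arrays read 6.82 to 7.61 (median 7.07), and only the highest of them passed the lowest control array. Its differences were -0.73 ± 0.17 in treated (adjusted p = 0.00276) and -0.63 ± 0.18 in spontaneous tumors (adjusted p = 0.0158). Its other 2 probe sets were not called in either comparison, and over 18 arrays its treated difference had an adjusted p of 0.24.

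Cd247, the zeta chain, was the exception on the probe set with the highest mean, at 9.04 to 9.36 in control and 9.15 to 9.84 in treated tumors. Its treated difference there was 0.35 ± 0.15 (adjusted p = 0.0849). A second probe set of the gene gave nearly the same difference, 0.36. Its other 2 probe sets were called lower in treated tumors, at -0.99 ± 0.32 (adjusted p = 0.0243) and -0.70 ± 0.24 (adjusted p = 0.0336), where 37.5% of all probe sets taken singly were called in either direction. In spontaneous tumors, with 31.5% of all probe sets called, none of the 4 passed. The probe sets of Cd247 thus disagree in sign, and no single direction can be given for this gene.

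Among coreceptors and adhesion molecules, Cd8a, Cd8b1 and Cd2 were lower in both kinds of tumor, while Cd4, Cd5 and Cd6 did not pass in either. Over 18 arrays, Cd8a, Cd8b1 and Cd2 were lower in treated tumors only. Cd8a and Cd8b1 encode the 2 chains of CD8, the coreceptor of cytotoxic T cells, and are neighbours on chromosome 6. Cd8a read 7.54, 7.92, 7.25, 7.01 and 8.09 in control, 6.11, 7.26, 7.37 and 6.15 in spontaneous tumors, and 5.63 to 6.74 (median 6.29) in treated tumors. All treated arrays were below control, and again spontaneous arrays 1 and 4 were low and 2 and 3 overlapped control. Cd8a differed by -1.32 ± 0.27 in treated tumors (adjusted p = 0.00133) and -0.84 ± 0.30 in spontaneous tumors (adjusted p = 0.043, exact p = 0.111). The spontaneous call held in 6 of 15 fits without 1 array, and was lost with the mean of probe sets and with median centring. Of its other 4 probe sets, 2 were lower in treated tumors, at -0.77 and -0.99, 1 read -0.96 without passing, and 1 read 0.033.

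Cd8b1 read 5.93, 6.96, 5.69, 5.92 and 6.66 in control, 5.26, 5.56, 5.52 and 5.16 in spontaneous tumors, and 4.66 to 5.49 (median 5.11) in treated tumors. Neither tumor group overlapped control. It differed by -1.10 ± 0.21 in treated (adjusted p = 0.000884) and -0.86 ± 0.24 in spontaneous tumors (adjusted p = 0.0119). Cd2, an adhesion molecule of T and NK cells, read 7.16, 9.42, 7.98, 7.69 and 9.17 in control, 6.47, 7.97, 7.11 and 6.47 in spontaneous tumors, and 6.41 to 7.21 (median 6.65) in treated tumors. Control arrays 2 and 6 were well above the other 3. Cd2 differed by -1.58 ± 0.38 in treated (adjusted p = 0.00381) and -1.28 ± 0.42 in spontaneous tumors (adjusted p = 0.0289).

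Cd4, the coreceptor of helper T cells that mouse myeloid cells can also express at a low level, read 7.41, 8.15, 7.27, 7.53 and 7.67 in control and 7.31, 7.75, 7.31 and 7.02 in spontaneous tumors. In treated tumors it read 8.89, 7.26, 7.05, 6.92, 7.33 and 6.91, with tumor 1 above every other array. Its differences were -0.21 ± 0.30 in treated (adjusted p = 0.622) and -0.26 ± 0.33 in spontaneous tumors (adjusted p = 0.59). Without treated tumor 1 the treated difference of Cd4 was -0.51, with an adjusted p of 0.0312, so that array decides the call on this probe set. The other Cd4 probe set differed by -0.18 ± 0.23 in treated (adjusted p = 0.569) and 0.09 ± 0.25 in spontaneous tumors (adjusted p = 0.821). Cd5 and Cd6, neighbouring genes of scavenger-receptor-like molecules on T cells, differed by -0.41 and -0.34 in treated tumors without passing (adjusted p = 0.0908 and 0.0748).

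On the probe sets with the highest mean, none of the 5 costimulation and checkpoint receptors was lower in either comparison. Cd28 was higher in treated tumors and Lag3 was higher in spontaneous tumors. Cd28, the main costimulatory receptor of T cells, read 5.45, 6.69, 5.41, 5.59 and 5.59 in control and 7.07, 5.58, 5.21 and 5.95 in spontaneous tumors. In treated tumors it read 6.07, 8.37, 7.01, 6.29, 7.19 and 8.23. All treated arrays were above 4 of the 5 control arrays, and control 2 lay inside the treated range. Cd28 rose by 1.45 ± 0.44 in treated tumors (adjusted p = 0.0159, exact p = 0.013), a 2.72-fold higher signal. The other Cd28 probe set differed by only 0.22 ± 0.31 (adjusted p = 0.613), and the call was lost with the mean of both probe sets and over 18 arrays (adjusted p = 0.17), and the sign turned with the GAPDH covariate.

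Lag3, an inhibitory receptor that binds MHC class II, read 5.55, 6.09, 5.66, 5.36 and 5.80 in control and 6.12, 6.23, 6.09 and 6.29 in spontaneous tumors. Treated tumors read 5.57 to 6.11 (median 5.91), and 4 of the 6 were within the control range. It rose by 0.49 ± 0.15 in spontaneous tumors (adjusted p = 0.0193, exact p = 0.0317) and its treated difference was 0.19 ± 0.13 (adjusted p = 0.285). The spontaneous call was lost over 18 arrays (adjusted p = 0.81) and without spontaneous tumor 4. Lag3 is the neighbour of Cd4 on chromosome 6.

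Pdcd1, encoding PD-1, read 5.31, 5.69, 5.04, 5.02 and 5.49 in control, 5.18, 6.37, 6.20 and 5.42 in spontaneous tumors, and 5.23 to 5.58 (median 5.43) in treated tumors. Spontaneous arrays 2 and 3 were the only ones above the highest control array. Its differences were 0.48 ± 0.22 in spontaneous (adjusted p = 0.106) and 0.09 ± 0.20 in treated tumors (adjusted p = 0.75). Ctla4, the inhibitory receptor that competes with CD28 for its ligands, read 5.35, 6.24, 5.31, 5.21 and 5.81 in control, 4.83, 5.95, 5.29 and 5.15 in spontaneous tumors, and 4.88 to 6.00 (median 5.20) in treated tumors. The 3 groups overlapped. Ctla4 differed by -0.30 ± 0.24 in treated (adjusted p = 0.357) and -0.28 ± 0.27 in spontaneous tumors (adjusted p = 0.457). Icos, the inducible costimulator, differed by -0.76 ± 0.30 and -0.64 ± 0.33 (adjusted p = 0.0545 and 0.15). Its spontaneous arrays (5.96 to 6.7) did not overlap control (6.76 to 7.44). Of its other probe sets, 1 was called lower in spontaneous tumors, at -0.53 ± 0.19 (adjusted p = 0.0483). Another was called lower in treated tumors, at -0.73 ± 0.22 (adjusted p = 0.0165). Of all probe sets taken singly, 31.5% and 37.5% were called in either direction. With the mean of its probe sets, Icos was called lower in treated tumors. Cd28, Ctla4 and Icos follow each other on chromosome 1, and on the probe sets with the highest mean only Cd28 was called.

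The ligands of PD-1 did not pass in either comparison. Cd274, encoding PD-L1, read 7.27, 8.62, 7.32, 6.94 and 8.80 in control and 7.04, 8.44, 9.22 and 7.29 in spontaneous tumors. Treated tumors read 8.55, 7.42, 8.48, 7.10, 7.21 and 7.41. In each group 2 arrays stood more than 1 log2 unit above the rest. Its difference was -0.10 ± 0.45 in treated tumors, with a 95% interval from -1.06 to 0.86, and 0.21 ± 0.50 in spontaneous tumors, from -0.86 to 1.27. Those intervals leave room for changes in either direction. Pdcd1lg2, encoding PD-L2 and next to Cd274 on chromosome 19, differed by 0.82 ± 0.31 in spontaneous (adjusted p = 0.0563) and 0.52 ± 0.28 in treated tumors (adjusted p = 0.162).

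**Figure D2:**
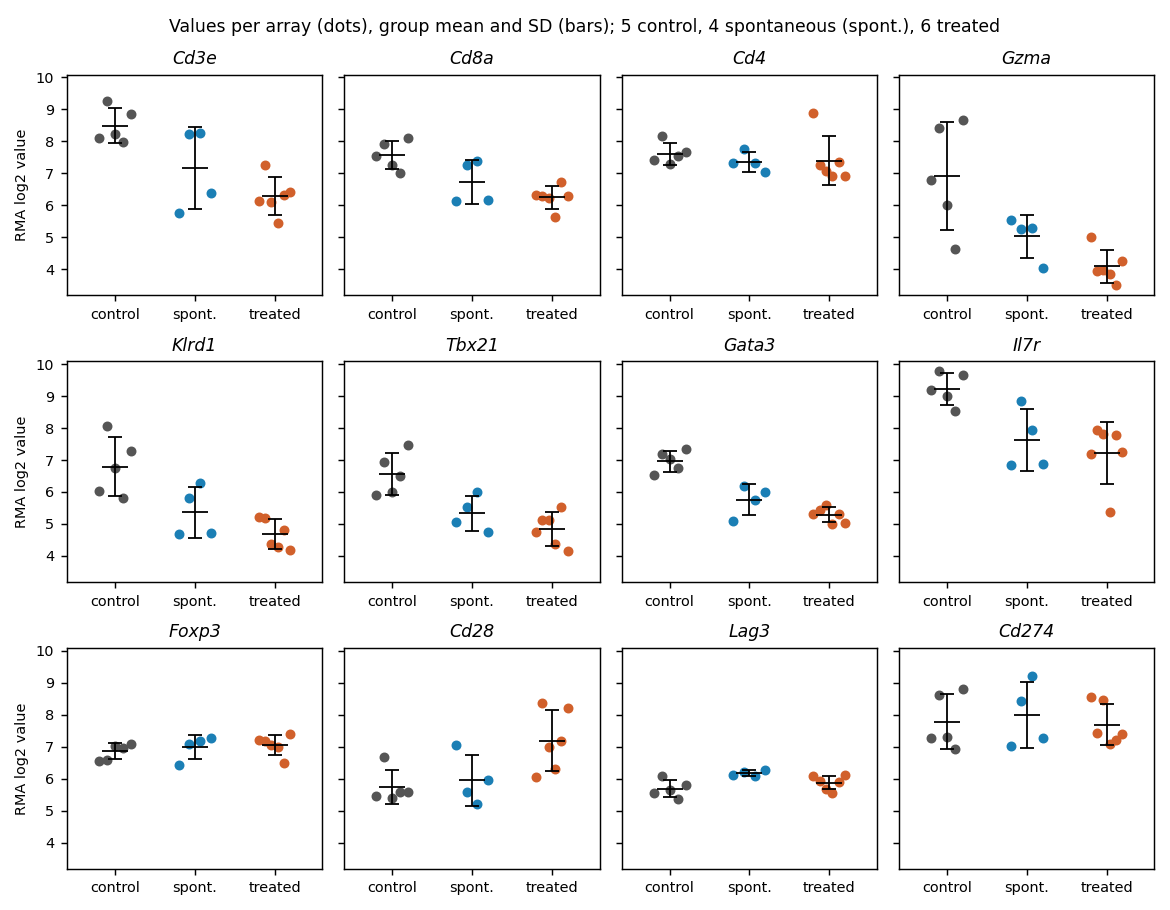
Log2 signal of selected genes in each of the 15 arrays (points) by group, with bars at the group mean ± SD. Treated tumors lie below control with no overlap for Cd3e, Cd8a, Gata3, Tbx21 and Klrd1, whereas the groups overlap for Cd4 and Cd274.

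Cytotoxic granule genes divided, with Gzma and Nkg7 lower in treated tumors, Gzma lower in spontaneous tumors, and Gzmb, Gzmk and Prf1 not called. Gzma, a serine protease of cytotoxic granules, read 6.77, 8.42, 6.02, 4.62 and 8.66 in control. It read 5.53, 5.25, 5.29 and 4.04 in spontaneous tumors and 5.01, 3.94, 3.97, 3.83, 3.50 and 4.26 in treated tumors. Only control 4 read within the tumor range. Gzma differed by -2.81 ± 0.59 in treated tumors (adjusted p = 0.00148, exact p = 0.00866), and -1.87 ± 0.65 in spontaneous tumors (adjusted p = 0.0387, exact p = 0.0952). Its SE was the largest among the called genes.

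Nkg7, a granule membrane protein needed for degranulation, read 7.19, 8.4, 7.19, 6.06 and 7.83 in control, 5.30, 8.01, 7.6 and 5.80 in spontaneous tumors, and 5.35 to 6.23 (median 5.69) in treated tumors. It fell by 1.62 ± 0.47 in treated tumors (adjusted p = 0.0122) and differed by -0.65 in spontaneous tumors (adjusted p = 0.36). Spontaneous arrays 2 and 3 read as high as control, and arrays 1 and 4 below it. Gzmb, granzyme B, read 4.86, 5.66, 6.79 and 4.71 in spontaneous tumors, and Gzmk, granzyme K and the neighbour of Gzma on chromosome 13, read 4.63, 6.40, 6.97 and 4.83. Tumor 3 was the highest for both. In treated tumors their differences were -0.88 ± 0.36 and -0.94 ± 0.43 (adjusted p = 0.0629 and 0.0985, exact p = 0.0173 and 0.0303). Prf1, perforin, differed by 0.18 in treated (adjusted p = 0.33) and 0.23 in spontaneous tumors (adjusted p = 0.284), and its other probe set by -0.09 in treated tumors.

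The NK receptor genes were all called lower in treated tumors, and Klrd1 was also lower in spontaneous tumors. Klrd1 encodes CD94, which pairs with NKG2 chains, and Klrk1 encodes the activating receptor NKG2D; they are neighbours in the NK gene complex on chromosome 6. Klrd1 read 6.03, 8.06, 6.74, 5.83 and 7.30 in control, 4.68, 5.80, 6.28 and 4.71 in spontaneous tumors, and 4.19 to 5.21 (median 4.59) in treated tumors. Treated arrays did not overlap control, and among spontaneous arrays only 3 was within the control range. It differed by -2.11 ± 0.40 in treated tumors (adjusted p = 0.000686) and -1.42 ± 0.44 in spontaneous tumors (adjusted p = 0.022, exact p = 0.0635).

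Klrk1 read 5.06, 6.38, 5.13, 5.19 and 6.34 in control, 4.44, 5.68, 5.97 and 4.15 in spontaneous tumors, and 3.95 to 4.62 (median 4.18) in treated tumors. It fell by 1.40 ± 0.34 in treated tumors with no overlap (adjusted p = 0.00418) and differed by -0.56 in spontaneous tumors (adjusted p = 0.273). Ncr1, encoding the NK receptor NKp46, was called lower in treated tumors by 0.64 ± 0.24 (adjusted p = 0.0461, exact p = 0.0606). It and Ifng were the only ones of the 34 with a mean in every group under the floor of 5.23. The Ncr1 call held in 5 of 15 fits without 1 array and was lost over 18 arrays (adjusted p = 0.37).

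Of the transcription factors, Gata3 and Tbx21 were lower in both kinds of tumor, and Foxp3 and Eomes did not pass. Gata3, a factor of T helper 2 cells and type 2 innate lymphoid cells, read 6.52, 7.18, 7.02, 6.75 and 7.35 in control, 5.10, 6.20, 5.75 and 5.99 in spontaneous tumors, and 4.99 to 5.61 (median 5.32) in treated tumors. Neither tumor group overlapped control. It differed by -1.68 ± 0.20 in treated tumors (adjusted p = 1.0e-05) and -1.20 ± 0.22 in spontaneous tumors (adjusted p = 0.000655), the smallest adjusted p among the 34 genes in both comparisons. Over 18 arrays the differences were -1.85 (adjusted p = 0.0017) and -0.96 (adjusted p = 0.15).

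Tbx21, encoding T-bet of T helper 1, cytotoxic and NK cells, read 5.91, 6.93, 6.01, 6.51 and 7.46 in control, 5.05, 5.53, 5.99 and 4.76 in spontaneous tumors, and 4.15 to 5.53 (median 4.94) in treated tumors. It differed by -1.72 ± 0.32 in treated tumors with no overlap (adjusted p = 0.000538) and -1.23 ± 0.35 in spontaneous tumors (adjusted p = 0.0137). Foxp3, the factor of regulatory T cells, read 6.57, 6.60, 7.04, 6.98 and 7.10 in control, 6.44, 7.08, 7.18 and 7.27 in spontaneous tumors, and 6.49 to 7.41 (median 7.13) in treated tumors. The groups overlapped, with differences of 0.20 (adjusted p = 0.425) and 0.14 (adjusted p = 0.643). Eomes, a T-box factor of NK and memory T cells, differed by -0.46 in treated tumors (adjusted p = 0.499), where tumor 2 read 7.44 and the others 4.13 to 5.11.

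Il7r, the receptor chain for a survival cytokine of naive and memory T cells and of innate lymphoid cells, read 9.18, 9.77, 9.0, 8.55 and 9.66 in control and 6.85, 8.84, 7.95 and 6.87 in spontaneous tumors. Treated tumors read 7.19, 7.93, 7.81, 5.36, 7.78 and 7.25. All treated arrays were below control, and of the spontaneous arrays only 2 was above the lowest control. Il7r differed by -2.01 ± 0.46 in treated (adjusted p = 0.0027) and -1.61 ± 0.51 in spontaneous tumors (adjusted p = 0.0237). It was the only gene whose spontaneous call held over 18 arrays (adjusted p = 0.046). Il2rb, the shared beta chain of the receptors for interleukins 2 and 15, fell by 0.92 ± 0.34 in treated tumors (adjusted p = 0.0443). That call was lost over 18 arrays (adjusted p = 0.25) and without control 2, control 6, treated 1, treated 4 or treated 6. The other Il2rb probe set was called lower in treated tumors, at -0.98 ± 0.26 (adjusted p = 0.00682). Of all probe sets taken singly, 37.5% were called in either direction there. Ifng, interferon gamma, differed by -0.27 in treated tumors (adjusted p = 0.575).

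**Figure D3:**
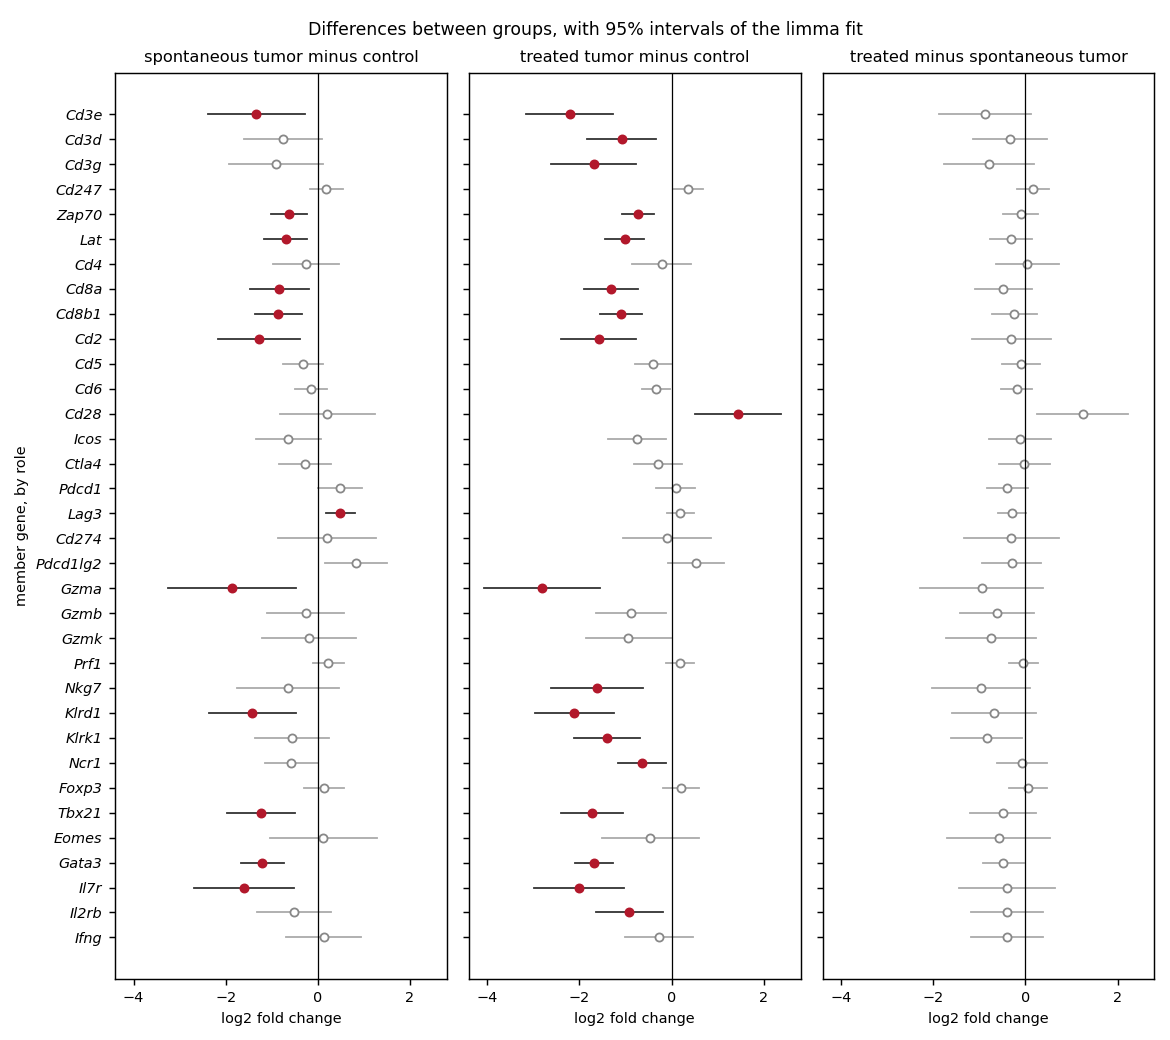
Log2 fold change of each of the 34 genes from control in spontaneous tumors (left) and treated tumors (middle), and of treated minus spontaneous tumors (right), with 95% intervals from the limma fit; red points passed an adjusted p under 0.05. Differences run from -2.81 (Gzma) to 1.45 (Cd28) in treated tumors.

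Treated and spontaneous tumors were compared directly to ask whether the tumors of exposed mice differ. No gene of the 34 was called, against 0.055% of all genes in either direction. Over 18 arrays no gene was called, neither among the 34 nor among all genes. By unadjusted limma p under 0.05, 3 passed, which is 8.82% against 8.64% of all genes. By the exact permutation test 2 passed, but that test was not run over all genes, so this count has no background share. The smallest adjusted p was 0.456, for Cd28, which was 1.24 higher in treated tumors with a 95% interval from 0.25 to 2.23. Cd3e differed by -0.87 with an interval from -1.88 to 0.13, and Gata3 by -0.48 with an interval from -0.92 to -0.03. The difference of Klrk1 was -0.84, from -1.61 to -0.07. The difference was below 0 for 30 of the 34 genes and its median was -0.32. Over all genes it was below 0 for 9930 of 18193, with a median of -0.02. Its sign turned for 11 of the 34 genes when some 1 array was left out, and for 6 over 18 arrays. A call in treated tumors that is missing in spontaneous tumors, as for Nkg7 or Klrk1, is therefore not shown to differ between them. The 2 groups of tumors overlapped for all 34 genes, whereas 0.83% of all genes were higher and 0.797% lower in treated tumors with no overlap.

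The spontaneous tumors were not alike in these genes. The median of the 34 differences from the control mean was -0.94 in tumor 1 and -1.01 in tumor 4, but -0.14 in tumor 2 and -0.22 in tumor 3. Tumor 2 had the highest value of its group for 16 genes and tumor 3 for 11. Treated tumors ranged from -1.22 in tumor 4 to -0.63 in tumor 5. Control arrays ranged from -0.44 in control 4 to 0.66 in control 2, where control 2 was the highest array for 21 genes and control 6 for 12. The median SD of the 34 genes was 0.518 in control, 0.648 in spontaneous and 0.330 in treated arrays, against 0.207, 0.242 and 0.253 over all genes. Without spontaneous tumor 4, 3 genes remained called in spontaneous tumors (Cd8b1, Gata3 and Zap70); without tumor 1 or without control 2 the count was 6. In treated tumors the count stayed between 15 and 21 when any 1 array was left out. Groups did not overlap for 10 genes lower in treated tumors, 29.4% of the 34 against 10.1% of all genes. In spontaneous tumors 4 genes lower did not overlap, 11.8% against 11.4%, which is the background share.

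Genes acting after the T cell receptor were called lower in part. Of 22 measured, 8 were lower and 1, Nfatc2, was higher in treated tumors, and 6 were lower in spontaneous tumors. The shares lower were 36.4% and 27.3%, against 15% and 12.9% of all genes. Cd27, a costimulatory receptor of the TNF receptor family, differed by -1.93 ± 0.18 in treated and -1.54 ± 0.20 in spontaneous tumors. Prkcq, the kinase PKC theta, differed by -1.50 and -1.13, and the Src family kinase Fyn by -1.04 and -0.74. Over 18 arrays 3 of the 22 (13.6%) were lower in treated and none in spontaneous tumors, against 4.44% and 3.19% of all genes.

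Homing and residency genes were lower for 9 of 17 measured in each comparison, with Cd44 higher. That share, 52.9%, stands against 15% of all genes in treated and 12.9% in spontaneous tumors. S1pr1, the receptor for exit from lymphoid tissue that endothelium also expresses strongly, fell by 2.55 ± 0.31 in treated tumors. S1pr5, used by NK cells, differed by -1.84 ± 0.21, and Cxcr3, a chemokine receptor of effector T cells, by -1.61 ± 0.28. Cd44, an adhesion molecule that many epithelial and myeloid cells carry, rose by 1.23 in treated and 1.64 in spontaneous tumors. Over 18 arrays 3 were lower in treated tumors (Cxcr3, Itgb7 and S1pr5) and 2 in spontaneous tumors (S1pr1 and Itgb7), and Cd44 was not called.

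Among 19 other NK genes, 8 were lower and 3 higher in treated tumors, and 6 lower and 1 higher in spontaneous tumors. The shares lower were 42.1% and 31.6%, against 15% and 12.9% of all genes. The shares higher were 15.8% and 5.26%, below the 23.8% and 20.1% of all genes. Cd244a, the receptor 2B4, differed by -1.29 ± 0.32 in treated tumors, and Klrg1, an inhibitory receptor of mature NK and T cells, by -0.72 ± 0.18. Il18rap, a chain of the interleukin 18 receptor, rose by 1.72 ± 0.35. Over 18 arrays none was lower in either comparison, so the calls of Cd244a and Klrg1 were lost, and only Il18rap was higher, in treated tumors. Of 21 measured helper T cell cytokines and factors, 1 was higher and 1 lower in treated tumors. That is 4.76% each way, below the 23.8% higher and 15% lower of all genes. Id2, an inhibitor of E proteins that epithelium also expresses, rose by 2.55 ± 0.28, and Stat4, which transmits interleukin 12 signals, fell by 1.49 ± 0.31. Both calls held over 18 arrays in treated tumors. In spontaneous tumors 3 of the 21 were higher (Il17a, Zbtb7b and Id2) and 2 were lower (Stat4 and Ikzf2). These shares, 14.3% and 9.52%, compare with 20.1% higher and 12.9% lower among all genes. Over 18 arrays none of the 21 was called in spontaneous tumors.

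The other checkpoint and costimulation genes went both ways, 9 of 26 lower and 3 higher in treated tumors, and 9 lower and 4 higher in spontaneous tumors. The share lower was 34.6% in each, against 15% of all genes in treated and 12.9% in spontaneous tumors. The shares higher were 11.5% and 15.4%, below the 23.8% and 20.1% of all genes. The 3 called higher in treated tumors are ligands rather than lymphocyte receptors. Nectin2 and Pvr, ligands of the receptors CD226 and TIGIT, rose by 1.75 ± 0.14 and 1.34 ± 0.10 in treated tumors, and by 2.12 ± 0.16 and 1.47 ± 0.11 in spontaneous tumors. Cd276, encoding B7-H3, rose by 1.93 ± 0.22 and 1.75 ± 0.24. Btla, an inhibitory receptor of B and T cells, differed by -2.78 ± 0.38 and -2.23 ± 0.42, and Vtcn1, encoding the inhibitory ligand B7-H4, by -1.37 ± 0.20 and -1.66 ± 0.22. Over 18 arrays, Btla and Vtcn1 were lower in both, Cd276 was higher in both, Pvr was higher in treated tumors only, and the calls of Nectin2 were lost. In the direct comparison of the tumor groups none of these 5 lists held a called gene.

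Markers of other cells in the tissue moved beside these genes. Of 11 markers of leukocytes as a whole, 2 were lower and 1 higher in treated tumors. These shares, 18.2% and 9.09%, compare with 15% lower and 23.8% higher among all genes. The summed log2 level of the markers overlapped, at 13.8 to 15.2 in control, 14.21 to 14.97 in spontaneous and 14.2 to 14.8 in treated arrays. Ptprc, encoding CD45, differed by -0.53 ± 0.33 in treated and -0.16 ± 0.37 in spontaneous tumors and was not called. B and plasma cell markers were lower for 6 of 11 in treated and 5 of 11 in spontaneous tumors, with Cd79a of the B cell receptor at -2.23 and -2.06. The shares lower were 54.5% and 45.5%, against 15% and 12.9% of all genes. Macrophage markers went the other way in median, at 0.84 and 0.76 over 14 genes, with 3 higher and 2 lower in treated tumors. Those calls, 21.4% higher and 14.3% lower, are near the 23.8% and 15% of all genes. Siglecf, carried by alveolar macrophages and eosinophils, rose by 2.25 in treated tumors. Over 18 arrays 1 leukocyte marker (Cd37) was lower in treated tumors, B cell markers were lower for 2 in treated and 1 in spontaneous tumors, and Siglecf was the only macrophage marker called, higher in both.

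Tissue markers differed more than those of leukocytes. All 12 endothelial markers were lower in treated tumors and 11 of 12 in spontaneous tumors, with a summed level of 14.9 to 15.7 in control, 12.0 to 13.1 in spontaneous and 11.9 to 13.1 in treated arrays. Of 12 fibroblast and smooth muscle markers 10 were lower in each, at 15.2 to 15.4 in control, 12.1 to 13.3 in spontaneous and 11.7 to 13.4 in treated arrays. Epithelial markers were higher for 9 of 13 in each, at 15.8 to 16.2, 16.5 to 16.7 and 16.5 to 16.7. Among all genes, 15% were lower and 23.8% higher in treated tumors, and 12.9% and 20.1% in spontaneous tumors. Over 18 arrays, 6 endothelial markers were lower in each comparison, 6 fibroblast and smooth muscle markers in treated and 8 in spontaneous tumors, and 3 epithelial markers were higher in treated tumors and none in spontaneous tumors. The summed level of the 34 genes was 12.0 to 13.0 in control, 11.8 to 12.4 in spontaneous and 11.7 to 12.1 in treated arrays. The part of the change in tissue makeup in the lower lymphocyte genes was not tested.

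**Figure D4:**
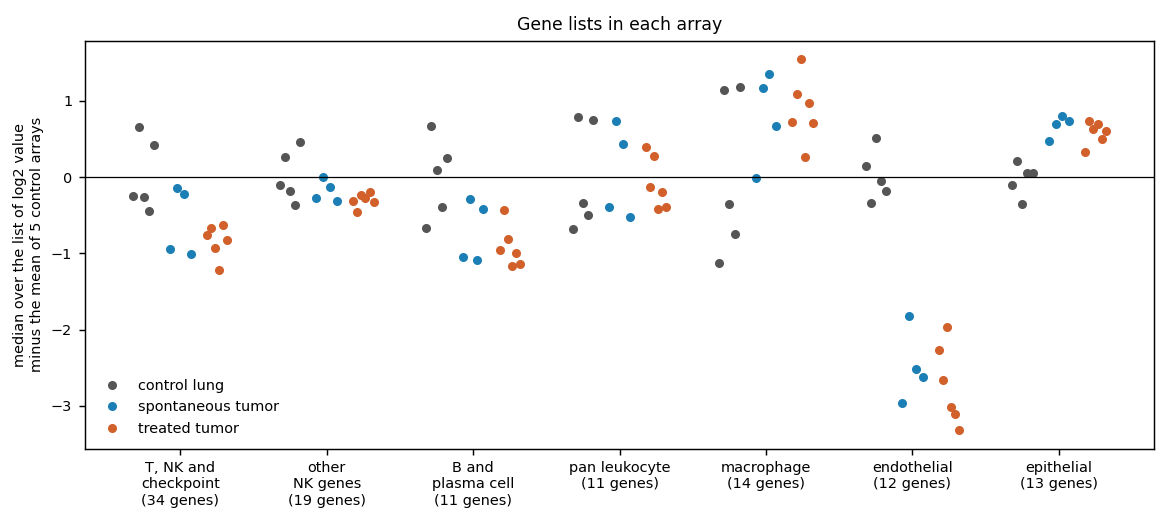
Median log2 difference from the control mean over each gene list (columns), for every one of the 15 arrays (points: 5 control, 4 spontaneous, 6 treated). The T, NK and checkpoint list lies at -1.22 to -0.63 in treated and -1.01 to -0.14 in spontaneous arrays, between the macrophage markers above it and the endothelial markers below it.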

How the data were processed

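RNA of 18 samples (100 ng each, amplified) was hybridized to 1-colour Affymetrix 3′ arrays. The deposited values are log2 signals made by the authors with RMA, which corrects background, normalizes between arrays and summarises probes, per the submitters' processing notes; its version is not given in the sources used here. RMA compresses differences at low signal; which arrays were normalized together is not given in the sources used here. Of 45101 probe sets, 34945 had 1 symbol in the platform annotation, 932 had several and the rest had none; per gene the probe set with the highest mean was kept. No 2 arrays shared more than 32 identical values. The number of arrays limits the precision. limma 3.58.1 (R 4.3.3) fitted 3 groups over 15 arrays, with Benjamini-Hochberg adjustment over 18193 genes; it was tested on simulated data. Exact permutation tests are two-sided, with smallest possible p of 0.0159 (spontaneous against control), 0.00433 (treated against control) and 0.00952 (treated against spontaneous). All 34 measured genes could be named. Values by array follow the 12 smallest adjusted p and a list of well-known genes. Cd28, Lag3 and Nkg7 are given by array outside that rule, as are single groups of Cd3d, Cd3g, Gzmb, Gzmk and Eomes. Further lists gave up to 6 genes each by smallest p. The genes and lists were chosen with earlier results of these data known. Left out: probe sets of several genes, and 3 arrays outside the 18-array fits. Replicate numbers do not pair the samples. Alternatives changed the arrays, scaling, probe set, covariate, variance model and filter; the GAPDH covariate was added after seeing the data.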

Additional observations from a re-analysis of the deposited data

Results flagged for a closer look

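In 7 of the 102 groups tested, 1 array stood far from the rest of its group by Dixon's criterion, which chance alone meets in about 1 group in 20. Cd4 read 8.89 in treated tumor 1, against 6.91 to 7.33 in the other 5. Il7r read 5.36 in treated tumor 4, against 7.19 to 7.93. Eomes read 7.44 in treated tumor 2, against 4.13 to 5.11. Cd5 read 4.49 in treated tumor 3, against 4.94 to 5.18, and Prf1 read 8.99 in treated tumor 5, against 9.50 to 9.72. In control 2, Cd28 read 6.69, against 5.41 to 5.59, and Ifng read 4.85, against 3.73 to 3.96. These arrays differ from gene to gene except control 2, which held 2 of the 7.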

How the results depend on the processing

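The count of called genes was 12 in spontaneous and 18 in treated tumors against control, and 0 between the tumors. The count in spontaneous tumors became 1 over all 18 arrays and 7 with a fold of at least 2. It became 1 when genes with a mean under the median of all genes were left out, and 1 was then called in treated tumors. That cut is not the floor of 5.23. It kept only 4 of the 34 genes, so the other calls were removed and not tested. Leaving out 1 array gave 3 to 13 in spontaneous tumors, 15 to 21 in treated tumors and 0 between them. The replicate number as a block gave 12, 19 and 0 calls; deviations of same-numbered arrays correlated at a median of -0.0247 over 13 pairs, so the numbers share only a name. With the GAPDH covariate, added after seeing the data, the counts became 0, 1 and 0. The share of all genes called moved as well. In spontaneous and treated tumors it was 33% and 38.8% in the main fit and 4.16% and 7.42% over 18 arrays. With the GAPDH covariate it was 5.85% and 8.88%. For the other settings of this paragraph that share is not given here. Among differences called in either fit, the sign turned only for these: Cd28 read -0.18 in treated tumors with that covariate; Cd8a read 0.31 in spontaneous and 0.033 in treated tumors on 1 other probe set, and Cd247 read -0.99 and -0.70 in treated tumors on 2 others; the cause was not tested. Uncalled differences changed sign more widely: over 18 arrays 6 did in spontaneous tumors and 2 (Pdcd1 and Lag3) in treated tumors, and without 1 array 5 and 1 did. Between the tumors, 6 did over 18 arrays and 11 without 1 array. Signal near the floor limits Cd8b1, Gzma, Klrd1, Klrk1, Tbx21, Ncr1 and Ifng. It also limits Cd5, Gzmb, Gzmk and Eomes, which were not called and had treated means under the floor. Ctla4, Pdcd1 and Pdcd1lg2 had control means of 5.58, 5.31 and 5.10, close to or under the floor of 5.23.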
